A study of Mus musculus with 40 samples.

Results

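The genes described here are 10 members of the antioxidant programme of the transcription factor NRF2 in mouse liver: Nfe2l2, which encodes NRF2 itself, its repressor gene Keap1, and the target genes Nqo1, Gclc, Gclm, Hmox1, Srxn1, Slc7a11, G6pdx and Mgst3. They were picked by symbol, with no threshold on a measured value, though with earlier results of these data known, and make up 10 of the 40594 genes that the count tables of both genotypes list. Liver RNA was sequenced from 40 male mice, all labelled as C57BL6/J, at 5 months of age, in 8 groups of 5 mice. Wild-type (WT) mice and mice with liver-specific knockout of PPARγ (KO) received a low-fat control diet (control), the same diet with the PPARγ agonist pioglitazone (Pio), a high-fat diet (HFD) or that diet with Pio (HFD-Pio). The KO mice came from a cross of PPARγ-loxP mice with mice that carry Cre under the albumin promoter, which is active in hepatocytes, so other liver cells keep the gene. The WT mice were C57BL6/J mice from a supplier and carried neither the floxed allele nor Cre. The deposited counts of the WT and the KO mice come from a table of their own for each genotype, and a difference between genotypes cannot be told apart from one between tables. No level was therefore tested between WT and KO mice, and only the effects of Pio and HFD, measured within each genotype, were compared between them.

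NRF2 is made continuously and, in unstressed cells, bound by KEAP1, which hands it to a ubiquitin ligase for degradation. Electrophiles and oxidants modify cysteines of KEAP1, NRF2 then accumulates in the nucleus and binds, with a small MAF protein, to antioxidant response elements near its target genes. Its targets make glutathione (Gclc and Gclm, with cystine brought in by Slc7a11), supply NADPH (G6pdx), repair oxidised thiols (Srxn1), and detoxify quinones, haem and lipid peroxides (Nqo1, Hmox1 and Mgst3). Since NRF2 is controlled mainly at the level of the protein, the mRNA of Nfe2l2 need not follow its activity, and the targets are the usual readout. In liver the programme is best known from responses to drugs and other foreign compounds.

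The libraries held 15788242 to 49857017 counts in WT mice and 21542958 to 28334251 in KO mice. Values below are counts divided by the library total and scaled to CPM after TMM normalisation, and tests were run with edgeR over the 12942 genes that reached 1 CPM in 5 or more mice, a limit that 9 of the 10 members met and Slc7a11 did not. Some libraries stood apart, and mice are named here by the numbers of the labels. In KO Pio mouse 13, 46.9% of the tested genes had their highest or lowest value of the group at an outlying distance, and its summed hepatocyte markers, 32726 CPM, were the lowest of the 40 mice, against a group median of 101890. For KO HFD mouse 9 that share was 15.3% and for WT control mouse 832 it was 10.0%. All 8 hepatocyte markers, albumin among them, were present in every group. Pparg, counted over the whole gene, ranged from 5.79 to 14.2 CPM in WT and from 3.01 to 9.90 CPM in KO mice. These ranges overlapped, and since reads from exons outside the floxed part and from other cells are included, the counts do not check the deletion. In bulk RNA, fewer cells of a type and less RNA per cell cannot be told apart.

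The promoters of 4 members are described first because they hold the core of the antioxidant response element, and that of Srxn1 is shown in full because it held the most matches. RefSeq promoter sequences (GRCm38.p6, the build to which the counts refer, 250 bases before to 50 after the start) were held for 8 of the members, all but Gclc and Hmox1. The core was searched as TGACNNNGC on both strands, and the related element TGANTCA, to which AP-1 and NRF2 with small MAF proteins bind, as well. TGACNNNGC occurred in 4 of the 8 promoters (Nfe2l2, Gclm, Srxn1 and G6pdx), and in 12.4% of the 32851 mouse promoters of the same length. TGANTCA occurred at 2 places in Srxn1 and in 7.81% of all promoters. The second of these is also TGANTCAGC, an extended form held by 1.19% of all promoters. In Srxn1 the TGACNNNGC match lies on the opposite strand, 28 to 36 bases after the start, and both TGANTCA matches lie before the start. The promoter of Srxn1 (chr2:152105274-152105573, plus strand) reads as follows, 5′ to 3′, with the pair of TGANTCA matches and then the TGACNNNGC match in capitals.
Srxn1: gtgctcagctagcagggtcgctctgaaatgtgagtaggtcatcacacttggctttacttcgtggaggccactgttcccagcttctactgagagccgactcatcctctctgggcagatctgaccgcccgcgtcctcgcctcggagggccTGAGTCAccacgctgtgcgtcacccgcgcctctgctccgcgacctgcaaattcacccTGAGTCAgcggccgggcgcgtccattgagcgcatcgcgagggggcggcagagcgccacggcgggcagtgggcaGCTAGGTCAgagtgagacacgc

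The promoter of G6pdx (chrX:74428831-74429130, minus strand) is shown because that gene gave most of the called differences. Its only match, in capitals, is to TGACNNNGC on the opposite strand, 57 to 49 bases before the RefSeq start. In GENCODE the gene starts farther upstream (74409483 to 74429194), so the whole window and this match lie within its annotated extent.
G6pdx: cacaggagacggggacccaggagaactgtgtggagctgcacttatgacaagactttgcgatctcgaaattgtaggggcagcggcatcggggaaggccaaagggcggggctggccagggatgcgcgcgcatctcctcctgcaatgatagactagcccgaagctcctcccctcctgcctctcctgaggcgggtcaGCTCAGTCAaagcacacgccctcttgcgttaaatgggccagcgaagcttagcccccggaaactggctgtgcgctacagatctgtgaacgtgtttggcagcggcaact

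The matches of Nfe2l2 and Gclm are given with 10 bases on either side, on the strand of the match, to set the core beside those above.
Nfe2l2 (chr2:75704885-75704913): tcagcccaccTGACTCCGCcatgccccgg
Gclm (chr3:122245413-122245441): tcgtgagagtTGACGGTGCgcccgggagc
A match describes these letters only and does not say whether the site is bound. The promoters of Keap1, Nqo1, Slc7a11 and Mgst3 held neither motif in this window.

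Across the 8 comparisons of 2 groups, 6 of the 72 tests of members were called (edgeR quasi-likelihood test, adjusted p of at most 0.05 over all tested genes), and they concerned G6pdx and Srxn1 alone. G6pdx was lower on HFD than on the control diet in WT mice, with and without Pio, was higher with Pio than without on the control diet in KO mice, and was lower in KO HFD-Pio than in KO Pio mice. Srxn1 was lower in WT Pio and in WT HFD than in WT control mice, and both of its calls were lost without mouse 832 and in other alternatives given below. The 7 other tested members were not called in this fit, and their counts at an unadjusted p and by other tools follow below.

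These counts are read against the share of all tested genes that was called. For Pio against control in WT mice, 1 of 9 members was called (Srxn1, lower) and 3.91% of all genes. For HFD against control in WT mice, 2 of 9 were called (G6pdx and Srxn1, both lower) and 1.31% of all genes. For HFD-Pio against Pio in WT mice, 1 of 9 was called (G6pdx, lower) and 1.22% of all genes. For HFD-Pio against HFD in WT mice, 0 of 9 were called and 1.08% of all genes, with 1 member at an unadjusted p under 0.05 in edgeR, 0 called by DESeq2 and 1 by limma with sample weights. In KO mice, Pio against control called 1 of 9 (G6pdx, higher) and 9.01% of all genes, and HFD-Pio against Pio 1 of 9 (G6pdx, lower) and 4.96%. HFD-Pio against HFD and HFD against control in KO mice called 0 of 9 members each and 0.0155% and 0.185% of all genes, with 0 members at an unadjusted p under 0.05 and 0 called by DESeq2 or limma. For KO Pio against control, 1 of 9 is close to the share of all genes. The medians of the 9 log2 fold changes lay between -0.18 and 0.19 in the 8 comparisons, and those of all tested genes between -0.02 and 0.03.

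**Figure D1:**
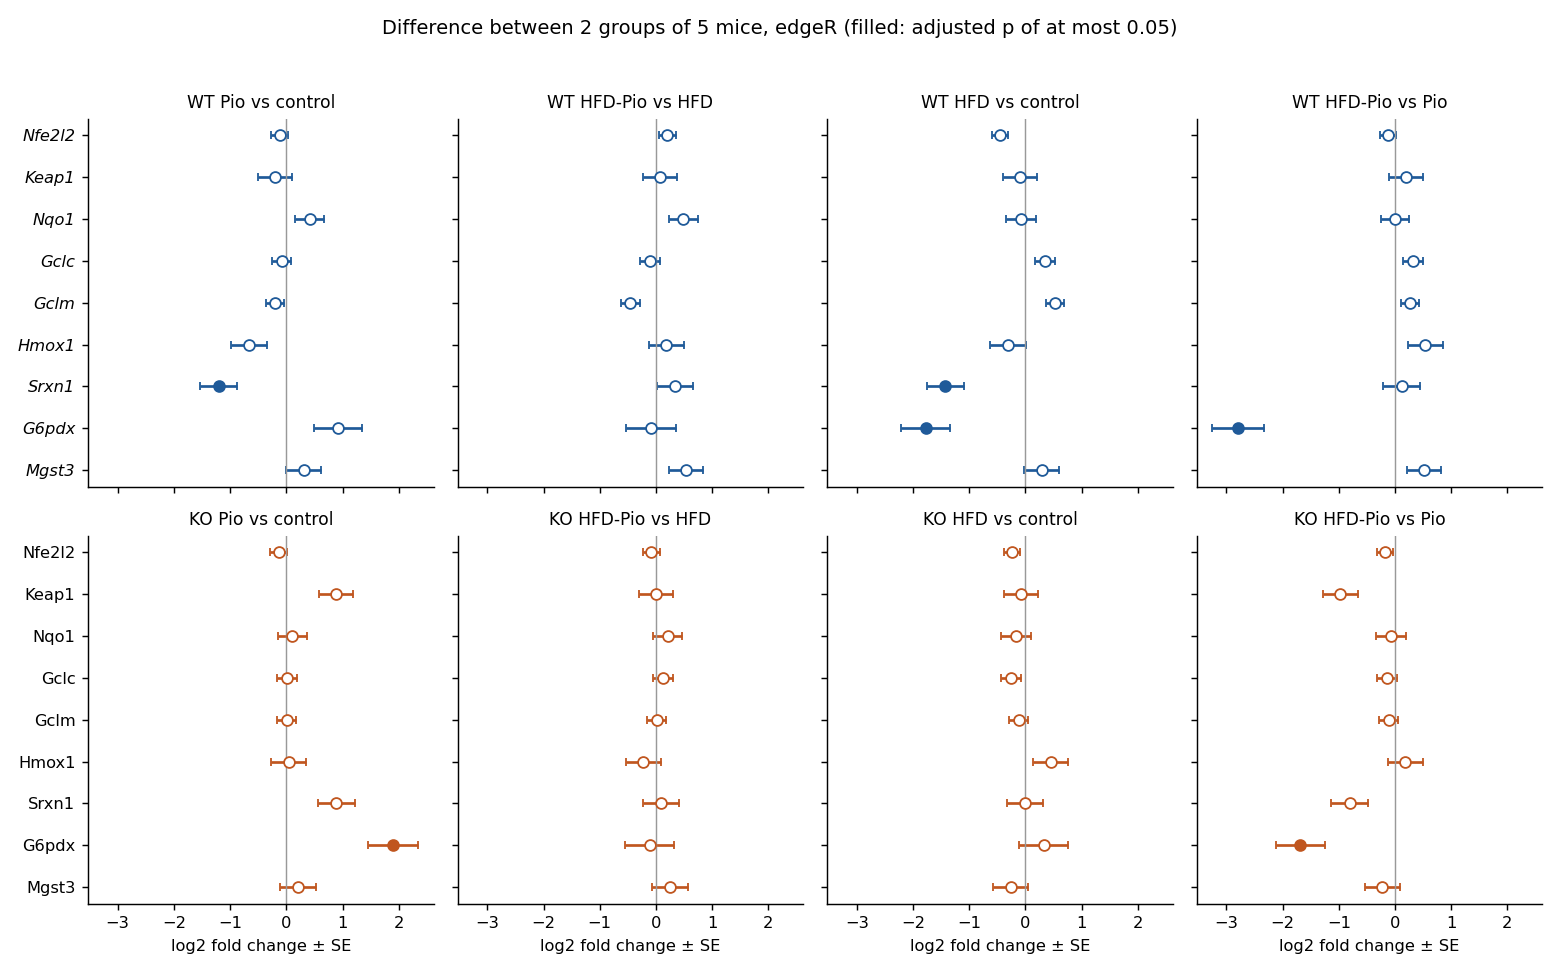
Each panel compares 2 groups of 5 mice, WT in the top row and KO in the bottom row, with the log2 fold change of 9 members (point) and its standard error (bar) on the horizontal axis; filled points had an adjusted p of at most 0.05 in edgeR. Filled points appear for G6pdx in 4 panels and for Srxn1 in 2, and for none of the other 7 genes.

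**Figure D2:**
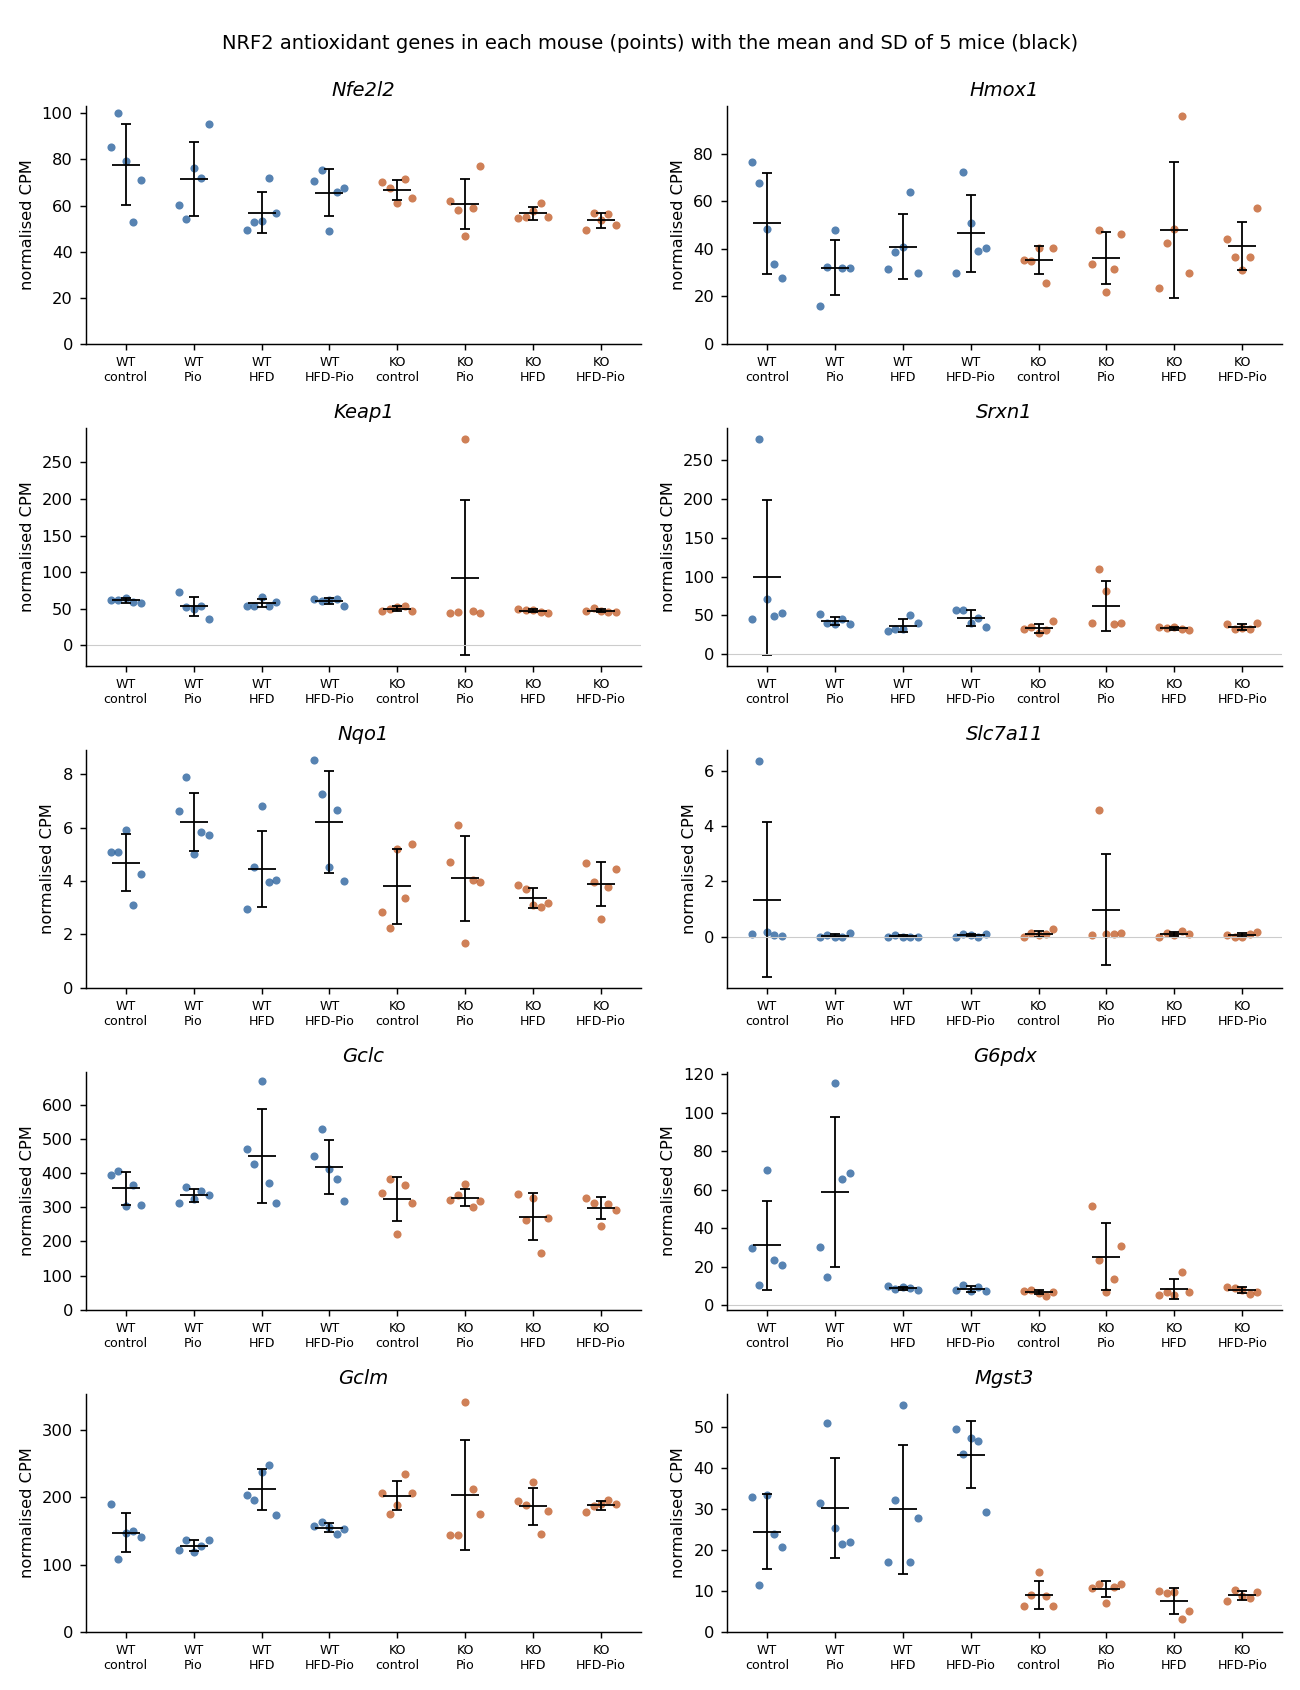
Normalised CPM of each of the 10 members (vertical axes, linear) in each of the 40 mice (points, WT in blue, KO in orange) with the mean and SD of each group of 5 (black). Single high points stand out for Srxn1 and Slc7a11 in WT control and KO Pio mice and for Keap1 and Gclm in KO Pio mouse 13, while G6pdx is spread widely in WT control, WT Pio and KO Pio mice and narrowly in the other groups.

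Nfe2l2, on the minus strand of chromosome 2 (75675513 to 75704641), ranged from 46.8 CPM in KO Pio mouse 13 to 100.4 CPM in WT control mouse 832, a 2.14-fold range over 40 mice. In WT control mice it was 85.4, 100.4, 79.3, 52.7 and 71.2 CPM, and in WT HFD mice 49.5, 52.6, 53.5, 72.2 and 56.8 CPM. The groups overlapped, with 2 of 5 HFD mice below the lowest control mouse. Their difference, -0.45 on the log2 scale (SE 0.15), was not called (edgeR, adjusted p = 0.123, and exact permutation test, p = 0.0635). It was called without KO Pio mouse 13 (log2 fold change -0.47, edgeR adjusted p = 0.0373) and without WT control mouse 834 (-0.58, edgeR adjusted p = 0.0315). In KO mice the log2 fold change for HFD against control was -0.24 (SE 0.15, edgeR adjusted p = 1.00), where 4 of 5 HFD mice lay below every control mouse (exact permutation test, p = 0.0159).

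Keap1, on the minus strand of chromosome 9 (21229730 to 21239361), encodes the substrate adaptor that holds NRF2 in check. It stayed between 36.0 and 73.1 CPM in 39 mice and reached 281.7 CPM, 7571 counts, in KO Pio mouse 13. The other 4 KO Pio mice had 44.7, 45.3, 46.3 and 44.6 CPM. With all mice the KO Pio group had a log2 fold change of 0.89 (SE 0.31) over KO control, and HFD-Pio one of -0.97 (SE 0.31) against Pio, neither called (edgeR, adjusted p = 0.0574 and 0.0534). With DESeq2 size factors in edgeR the second was called (-1.01, adjusted p = 0.0464), as it was without any 1 of the other 4 KO Pio mice. Without mouse 13 these became -0.12 and 0.05 (edgeR, adjusted p = 0.803 and 1.00), so both rest on that mouse. An antisense gene, Gm16754, shares exon sequence with Keap1, and the counting is not stated to use strand.

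The enzyme that limits glutathione synthesis has a catalytic subunit, encoded by Gclc, and a modifier subunit, encoded by Gclm. Per kilobase of exon (GENCODE M21), Gclc was the most abundant member in each genotype. Its median level was 97.9 CPM per kb in WT mice, where Mgst3 (27.6), Gclm (24.1) and Hmox1 (22.3) came next, and 83.6 CPM per kb in KO mice, where Gclm (30.1), Hmox1 (20.8) and Nfe2l2 (15.2) did. Gclc, on chromosome 9 (77754535 to 77794485), was 394, 406, 303, 365 and 307 CPM in WT control mice, and 471, 425, 669, 372 and 311 CPM in WT HFD mice. In 3 of 5 HFD mice it lay above every control mouse, but the log2 fold change of 0.34 (SE 0.18) was not called (edgeR, adjusted p = 0.402). KO HFD mouse 9 had the lowest value of all mice, 166 CPM.

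Gclm, on chromosome 3 (122245557 to 122270732), showed the most separated groups among the members that were not called. It was 190, 108, 147, 150 and 142 CPM in WT control mice. In WT HFD mice it was 203, 197, 238, 248 and 174 CPM, and in WT HFD-Pio mice 157, 163, 157, 145 and 153 CPM. Thus 4 of 5 HFD mice lay above every control mouse, and all 5 HFD-Pio mice lay below every HFD mouse. The log2 fold change of HFD against control was 0.52 (SE 0.17, edgeR adjusted p = 0.105; exact permutation test, p = 0.0159, two-sided), and that of HFD-Pio against HFD was -0.45 (SE 0.17, edgeR adjusted p = 0.165; exact permutation test, p = 0.00794, the lowest possible with 5 mice a group). Groups of 5 mice without overlap were found in 1 of 10 members for HFD-Pio against HFD (Gclm, lower) and in 7.12% of all tested genes. For HFD-Pio against Pio they were found in 2 of 10 members (Gclm, higher, and G6pdx, lower) and in 6.49% of genes, and for HFD against control in 1 of 10 (G6pdx, lower) and in 3.05%. In the remaining comparisons no member separated in this way, where the shares of all genes were 7.53% for WT Pio against control, and 3.7%, 0.61%, 3.04% and 2.43% for Pio against control, HFD-Pio against HFD, HFD against control and HFD-Pio against Pio in KO mice. Without KO Pio mouse 13 both Gclm differences were called, at log2 fold changes of 0.51 (edgeR, adjusted p = 0.00861) and -0.44 (edgeR, adjusted p = 0.0168). The first was also called with WT mice fitted alone (0.51, edgeR adjusted p = 0.0376), without mouse 831 (0.61, edgeR adjusted p = 0.0435) and without mice 832, 12 and 13 together (0.43, edgeR adjusted p = 0.0382). The second was also called by limma with sample weights (-0.367, adjusted p = 0.0347) and without these 3 mice together (-0.445, edgeR adjusted p = 0.00843). In KO mice Gclm ranged from 146 to 224 CPM on HFD and from 178 to 197 CPM on HFD-Pio. The difference between the HFD effects of the genotypes without Pio, -0.64 on the log2 scale (SE 0.23, KO minus WT), was not called (edgeR, adjusted p = 0.314). The annotated antisense gene Gm17494 shares exon sequence with Gclm.

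Slc7a11, the light chain of the cystine and glutamate exchanger, on the minus strand of chromosome 3 (49892526 to 50443614), was almost silent. It had 171 counts (6.37 CPM) in WT control mouse 832 and 128 counts (4.60 CPM) in KO Pio mouse 12. In the other 38 mice it had 0 to 8 counts, at most 0.279 CPM. Of these, 13 mice had 0 counts, which allows up to 3 counts or 0.0774 to 0.204 CPM depending on the library, a limit that covers counting error only. The heavy chain of the exchanger, Slc3a2, was 2.20 times the median of the other 4 WT control mice in mouse 832 and 1.61 times that of the other 4 KO Pio mice in mouse 12. The Pio effect on Slc3a2 on the control diet, KO minus WT, was 1.53 with all mice and without mouse 12. It was 1.23 without mouse 832, and 1.13 without mouse 13, where Slc7a11 had 2 counts. Without mice 832, 12 and 13 together it was 0.58 (edgeR, adjusted p = 0.0261). Slc7a11 did not enter the fit with the filter. With no filter on low counts, its Pio effect on the control diet was called as different between the genotypes (8.36, KO minus WT, edgeR adjusted p = 0.0185). A fitted fold change at such counts depends on the prior count and is no bound.

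G6pdx encodes glucose-6-phosphate dehydrogenase, the entry enzyme of the pentose phosphate pathway and a source of the NADPH that glutathione and thioredoxin reductases use. It lies on the minus strand of chromosome X (74409483 to 74429194). It ranged from 5.03 to 115 CPM, a 22.9-fold range (15.9-fold in WT, 10.3-fold in KO mice), the widest ratio among the 9 tested members. In WT control mice it was 29.9, 10.6, 70.5, 23.5 and 21.0 CPM, and in WT Pio mice 30.4, 14.7, 115, 65.6 and 68.7 CPM. In WT HFD mice it was 9.99, 8.73, 9.44, 9.07 and 7.92 CPM, and in WT HFD-Pio mice 7.83, 10.6, 7.25, 9.36 and 7.39 CPM. Every WT mouse on HFD lay below every WT mouse on the control diet with the same treatment, and the values on HFD were also close to each other, with an SD of 0.777 CPM against 23.1 CPM in control mice. The fall was 3.43-fold without Pio (log2 fold change -1.78, SE 0.44, edgeR adjusted p = 0.0318) and 6.93-fold with Pio (-2.79, SE 0.46, edgeR adjusted p = 7.42e-04). The exact permutation test gave p = 0.00794 for each, two-sided, the smallest it can give. The difference with Pio was called in each of the alternatives run, between -3.04 and -2.40 when single mice were left out. The difference without Pio was not called when WT control mouse 833, the highest of its group, was left out (-1.25, edgeR adjusted p = 0.158), nor without any 1 of the 5 WT HFD mice (adjusted p between 0.0553 and 0.0807 in edgeR). Limma did not call it with sample weights (-1.55, adjusted p = 0.0913) or without them (-1.48, adjusted p = 0.153). With no filter on low counts it was not called either (-1.81, edgeR adjusted p = 0.0653). The difference between WT Pio and WT control mice was not called (0.93, SE 0.43, edgeR adjusted p = 0.241; exact permutation test, p = 0.238). It was called without mouse 833 (1.47, edgeR adjusted p = 0.0497) and by limma with sample weights (1.27, adjusted p = 0.00956).

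In KO mice G6pdx was compared among the KO groups only. It was 7.22, 7.80, 6.66, 5.03 and 7.11 CPM in KO control mice, and 51.6, 23.7, 6.77, 13.7 and 30.6 CPM in KO Pio mice, where the 6.77 CPM belongs to mouse 13. Thus 4 of 5 KO Pio mice lay above every KO control mouse. KO HFD mice had 5.26, 6.99, 5.54, 17.5 and 7.08 CPM, the 17.5 CPM in mouse 9, and KO HFD-Pio mice had 9.33, 9.05, 8.06, 5.76 and 7.08 CPM. Pio against control gave a log2 fold change of 1.90 (SE 0.45, 3.73-fold, edgeR adjusted p = 0.0146; exact permutation test, p = 0.0317), which held without mouse 13 (2.16) and in each of the 40 fits without 1 mouse. It was not called by limma without sample weights (1.59, adjusted p = 0.0805) or when KO mice were fitted alone (1.91, edgeR adjusted p = 0.0831). HFD-Pio against Pio gave -1.68 (SE 0.44, 3.21-fold lower, edgeR adjusted p = 0.0399; exact permutation test, p = 0.0397), and this call was lost without mouse 13 (-1.93, edgeR adjusted p = 0.0803) and without any 1 of the KO HFD-Pio mice. Limma without sample weights did not call it (-1.39, adjusted p = 0.225). It was also lost with KO mice fitted alone (-1.70, edgeR adjusted p = 0.225) and with no filter on low counts (-1.69, edgeR adjusted p = 0.0593). On HFD, Pio made no called difference in either genotype, with log2 fold changes of -0.09 (SE 0.44) in WT and -0.11 (SE 0.44) in KO mice.

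Differences between the effects on G6pdx were not called. The HFD effect without Pio was 2.10 higher on the log2 scale in KO than in WT mice (SE 0.62, edgeR adjusted p = 0.184), and the Pio effect on HFD was 2.01 lower than on the control diet in KO mice (SE 0.62), where the adjusted p was 0.339 in edgeR. The Pio effect on the control diet was 0.93 in WT and 1.90 in KO mice, and their difference, 0.97 (SE 0.61), had an adjusted p of 0.298 in edgeR. The effects are therefore not shown to differ. Exons of Ikbkg, which encodes a subunit of the IκB kinase, overlap those of G6pdx on the opposite strand. Ikbkg had log2 fold changes of -0.24 (SE 0.22) for HFD against control and 0.00 (SE 0.22) for HFD-Pio against Pio in WT mice, and its range was 43.4 to 94.2 CPM in WT control and 32.2 to 67.0 CPM in WT HFD mice.

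Srxn1, whose start lies within the promoter window printed above, encodes sulfiredoxin, which reduces overoxidised peroxiredoxins. It lies on chromosome 2 (152105516 to 152111376). It was 45.1, 277, 70.5, 49.2 and 52.8 CPM in WT control mice, and mouse 832 held the 277 CPM. WT Pio mice had 51.1, 39.9, 38.8, 45.5 and 39.3 CPM, WT HFD mice 29.7, 32.6, 32.1, 49.7 and 39.8 CPM, and WT HFD-Pio mice 56.3, 56.7, 39.7, 46.1 and 34.3 CPM. The groups overlapped, with 3 of 5 Pio mice and 4 of 5 HFD mice below every control mouse. Srxn1 was 2.31-fold lower with Pio (log2 fold change -1.20, SE 0.33, edgeR adjusted p = 0.0293) and 2.69-fold lower on HFD (-1.43, SE 0.33, edgeR adjusted p = 0.0193) than in control mice. The exact permutation test gave p = 0.0397 and 0.0238. Without mouse 832 the differences were -0.34 (edgeR, adjusted p = 0.473) and -0.57 (edgeR, adjusted p = 0.394), the same sign and no longer called. The Pio call was also lost without any 1 of WT Pio mice 842 to 845 (edgeR, adjusted p between 0.0524 and 0.0874). It was lost as well with no filter on low counts and with WT mice fitted alone (edgeR, adjusted p = 0.0653 and 0.0508). The HFD call was also lost without mouse 826 or 828 (edgeR, adjusted p = 0.0534 and 0.0628). Limma, with or without sample weights, called neither difference. Without mice 832, 12 and 13 together the difference on HFD was -0.56 and was called (edgeR, adjusted p = 0.0311).

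KO mice carried a high value in the other arm. Srxn1 was 31.7, 34.5, 27.3, 31.3 and 42.9 CPM in KO control mice and 40.1, 110, 81.0, 38.9 and 40.6 CPM in KO Pio mice, the 110 CPM in mouse 12 and the 81.0 CPM in mouse 13. KO HFD mice lay between 31.1 and 35.3 CPM and KO HFD-Pio mice between 31.7 and 40.2 CPM. Pio against control gave 0.89 (SE 0.33), not called (edgeR, adjusted p = 0.0738; exact permutation test, p = 0.0317). It was called without mouse 832 (0.88, edgeR adjusted p = 0.0147) and without any 1 of KO Pio mice 11, 14 and 15 (1.01 to 1.02). The Pio effect on the control diet differed between the genotypes, by 2.10 on the log2 scale (SE 0.46, KO minus WT, edgeR adjusted p = 0.00720), a difference called for 1 of 9 members and for 7.87% of all genes. It was called in each of the 40 fits that left out 1 mouse, with values from 1.22 to 2.30, the lowest without mouse 832. Without mice 832, 12 and 13 together it was 0.58 (edgeR, adjusted p = 0.142).

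**Figure D3:**
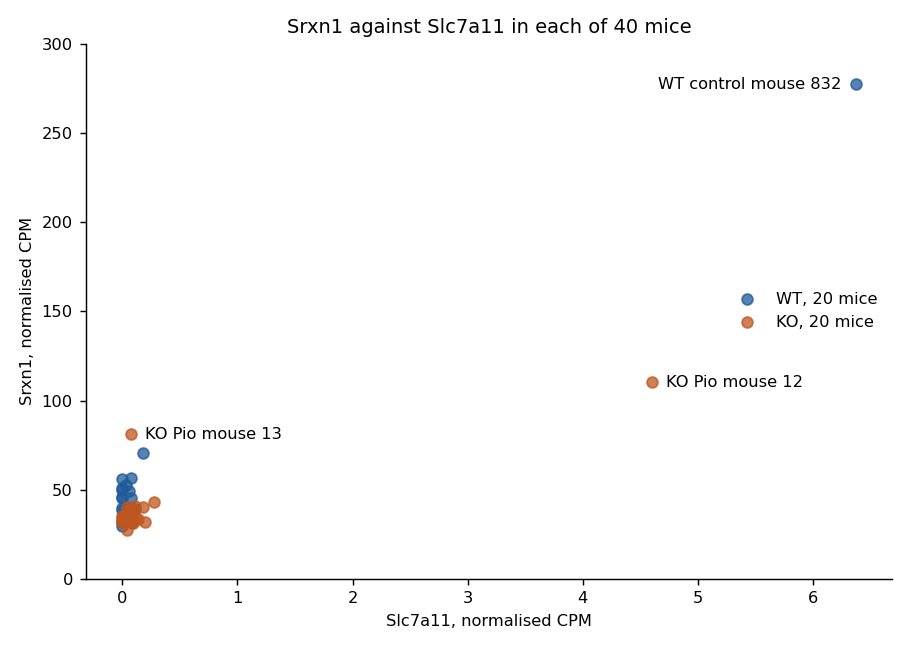
Srxn1 (vertical axis) against Slc7a11 (horizontal axis), both in normalised CPM, in each of the 40 mice. WT control mouse 832 (277 CPM of Srxn1 and 6.37 CPM of Slc7a11) and KO Pio mouse 12 (110 and 4.60 CPM) lie apart from the other 38 mice, and KO Pio mouse 13 has 81.0 CPM of Srxn1 with 0.0744 CPM of Slc7a11.

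**Figure D4:**
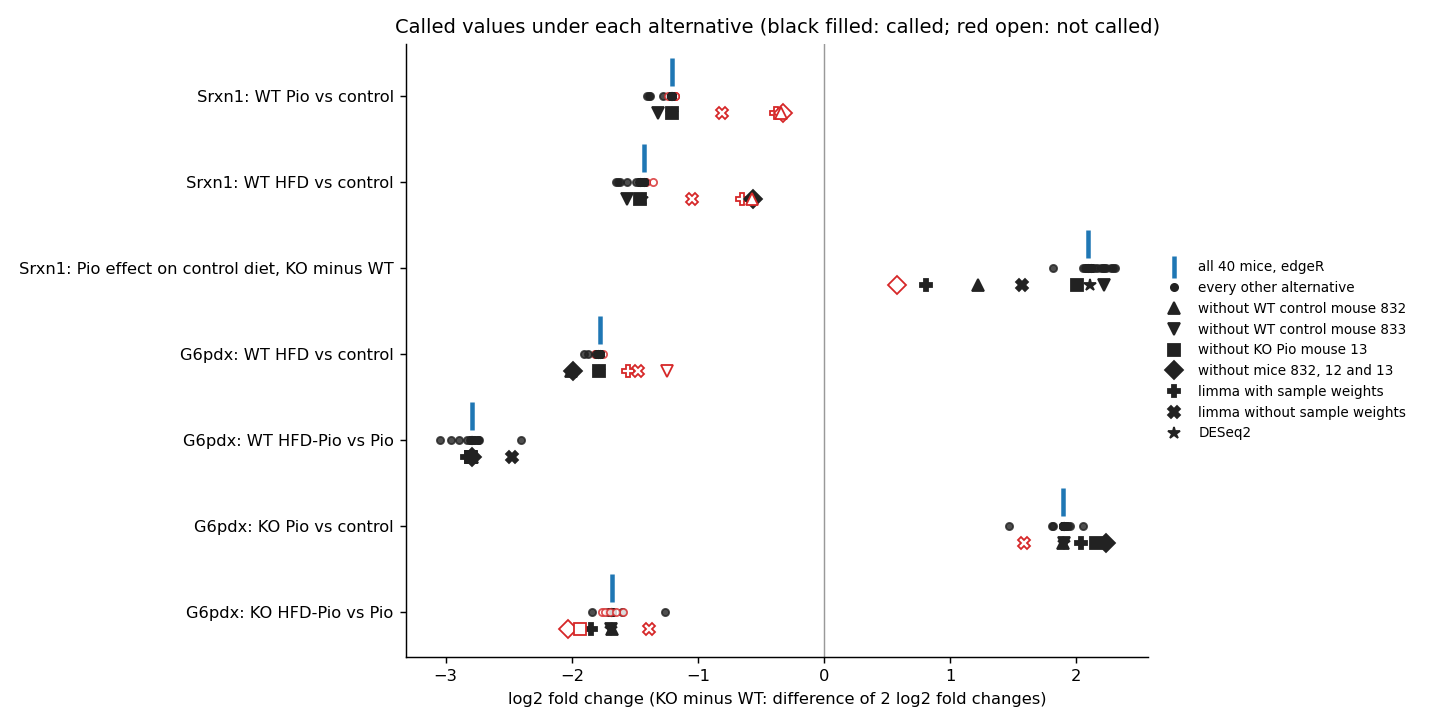
The 7 called values of members (rows) under each alternative, with the log2 value on the horizontal axis: blue bars give the value with all 40 mice in edgeR, round points the fits without single mice and the remaining alternatives, and other symbols the alternatives of the key. Filled black symbols were called and open red symbols were not, which leaves G6pdx for WT HFD-Pio against Pio as the only row without an open symbol.

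The other differences between effects were called for 0 of the 9 members. The difference of the Pio effects between the diets had 1 member at an unadjusted p under 0.05 in WT mice and 2 in KO mice (edgeR), 0 called by DESeq2 or limma, and was called for 0.0773% and 0% of all genes. In WT mice that member was Srxn1 (1.55, SE 0.46, edgeR adjusted p = 0.145), called without KO Pio mouse 13 (1.57, edgeR adjusted p = 0.0455). The Pio effect on HFD did not differ between the genotypes for any member at an unadjusted p under 0.05, with 0.0927% of all genes called and 0 members called by DESeq2 or limma. The HFD effect without Pio differed at an unadjusted p under 0.05 for 4 members (Gclc, Gclm, Srxn1 and G6pdx; 0 called by edgeR, DESeq2 or limma, 0.0618% of all genes called). For Srxn1 it was 1.42 higher in KO than in WT mice (SE 0.46, edgeR adjusted p = 0.240), and 0.56 without mouse 832. The HFD effect with Pio was called for 0.0155% of all genes. It had 1 member at an unadjusted p under 0.05 (Keap1), 0 called by DESeq2 and 1 by limma with sample weights (Mgst3, -1.08, adjusted p = 0.0267).

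Nqo1, the quinone reductase most used as a readout of NRF2, on the minus strand of chromosome 8 (107388225 to 107403206), was low, from 1.67 to 8.54 CPM. It was 5.09, 5.07, 5.92, 3.10 and 4.25 CPM in WT control mice and 6.60, 7.89, 5.03, 5.83 and 5.71 CPM in WT Pio mice. The groups overlapped, with 2 of 5 Pio mice above every control mouse, and the log2 fold change was 0.41 (SE 0.26, edgeR adjusted p = 0.438), called by limma with sample weights (0.65, adjusted p = 0.0267). On HFD the Pio difference in WT mice was 0.49 (SE 0.26, edgeR adjusted p = 0.371). Group means in KO mice lay between 3.37 and 4.09 CPM. In mouse 832, where Srxn1 and Slc7a11 were high, Nqo1 was 1.08 times the median of the other 4 control mice.

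Hmox1, the inducible haem oxygenase, on chromosome 8 (75093621 to 75100589), is expressed in liver macrophages as well as in hepatocytes. It was 76.4, 67.8, 48.2, 33.7 and 27.5 CPM in WT control mice and 15.8, 32.5, 48.1, 32.1 and 32.0 CPM in WT Pio mice. These ranges overlapped, and the log2 fold change of -0.66 (SE 0.32) was not called (edgeR, adjusted p = 0.258). The highest value was 95.9 CPM in KO HFD mouse 9, whose other 4 group members had 23.4, 42.6, 48.1 and 29.6 CPM. In that mouse the 10 macrophage markers summed to 1010 CPM, the highest of the KO HFD group, where the median was 468. Their part in the Hmox1 value was not tested.

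Mgst3 encodes a microsomal glutathione S-transferase that also reduces lipid hydroperoxides, and lies on the minus strand of chromosome 1 (167371966 to 167393841). It ranged from 11.3 to 55.2 CPM in WT mice and from 3.07 to 14.5 CPM in KO mice, levels that stand in separate tables and were not tested. WT HFD mice had 17.0, 32.2, 55.2, 17.1 and 27.7 CPM, and WT HFD-Pio mice 49.4, 43.3, 47.2, 46.6 and 29.1 CPM. In 4 of 5 HFD-Pio mice the level lay above all HFD mice except mouse 828, and the log2 fold change of 0.53 (SE 0.31) was not called (edgeR, adjusted p = 0.411). Against WT Pio mice it was 0.51 (SE 0.31, edgeR adjusted p = 0.482), called by limma with sample weights (0.76, adjusted p = 0.00860). In KO mice the 4 group means lay between 7.45 and 10.3 CPM.

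**Figure D5:**
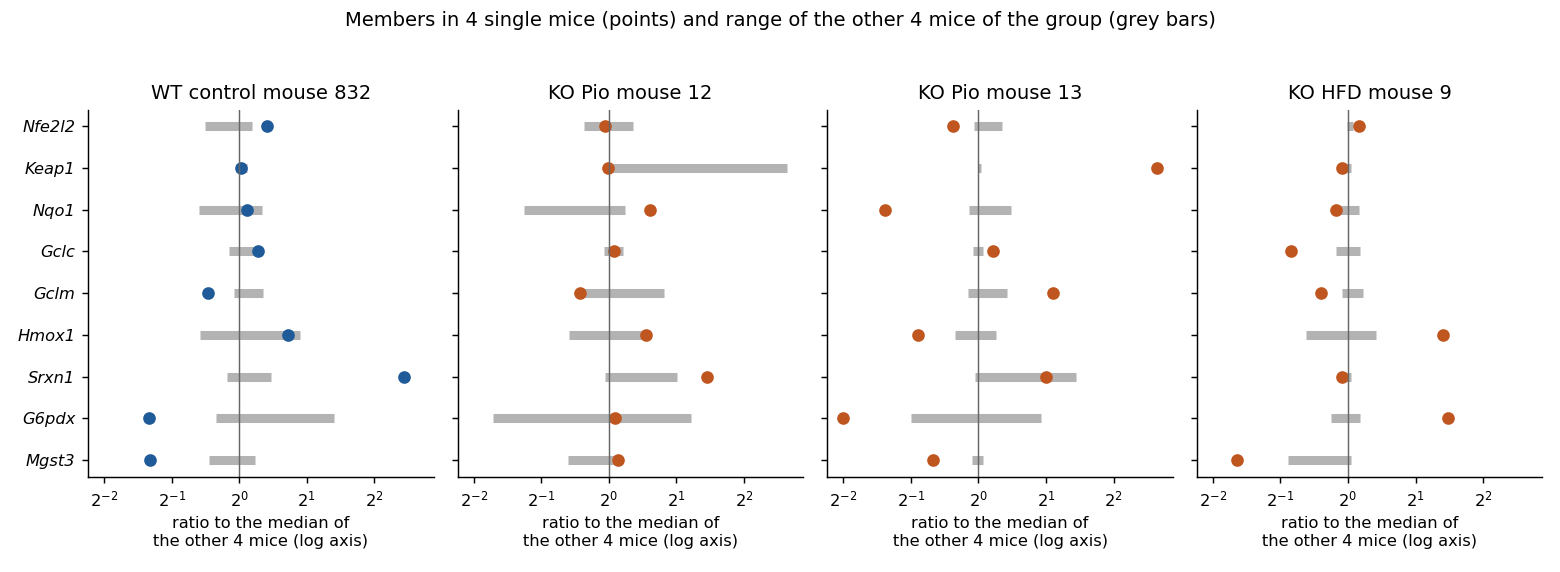
The 9 tested members (rows) in 4 mice that stood apart, as the ratio of the mouse to the median of the other 4 mice of its group (point, log axis), with the range of those 4 mice (grey bar). Mouse 832 is high for Srxn1 and low for G6pdx, Mgst3 and Gclm, and mouse 13 is high for Keap1 and Gclm and low for G6pdx and Nqo1.

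The mice that set the high values of Srxn1 did not have the whole programme high. In mouse 832, 3 of the 9 tested members were the highest of the group (Nfe2l2, Gclc and Srxn1) and 3 the lowest (Gclm, G6pdx and Mgst3). In mouse 12, 4 were the highest (Nqo1, Hmox1, Srxn1 and Mgst3) and Gclm was the lowest. Slc7a11, which is not among the 9, was also the highest of the group in mice 832 and 12. In mouse 13, Keap1, Gclc and Gclm were the highest and 5 members the lowest (Nfe2l2, Nqo1, Hmox1, G6pdx and Mgst3). The summed stellate cell markers were 606 CPM in mouse 832, where the group median was 179, and 367 CPM in mouse 12, where it was 250. In mouse 13 they were 208 CPM, the lowest of the group, and KO control mouse 5 had 374 CPM. The summed bile duct markers were 108 CPM in mouse 832 (group median 50.4), 42.7 CPM in mouse 12 and 79.2 CPM in mouse 13 (group median 43.2). The part of these cell types in the values of the members was not tested.

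In all, 8 lists set the members beside 89 related genes, 81 of them tested. For Pio against control in WT mice, 3 of the 81 rose and 4 fell (8.64%, against 3.91% of all genes). Abcc4, an efflux transporter (log2 fold change 1.45, SE 0.35), Cat, which encodes catalase (0.78, SE 0.23), and Ggct, which releases cysteine from glutathione fragments (0.78, SE 0.21), rose. Ftl1, the ferritin light chain (-0.93, SE 0.18), Slc3a2 (-1.08, SE 0.22), Gstm3, a glutathione S-transferase (-2.03, SE 0.48), and Fbxw11, a ubiquitin ligase subunit (-0.44, SE 0.13), fell. Without mouse 832, the calls of Abcc4, Ftl1, Ggct and Slc3a2 remained and those of Gstm3 (-1.24, edgeR adjusted p = 0.114), Cat and Fbxw11 were lost. Without mice 832, 12 and 13 together, Gstm3 (-1.23, edgeR adjusted p = 0.0119) and Cat (0.66, edgeR adjusted p = 0.0176) were called. Fbxw11 was not (-0.27, edgeR adjusted p = 0.0721). Without KO Pio mouse 13, 6 list genes rose and 11 fell, the 7 above among them, while the calls over all genes rose from 506 to 2007. On HFD, Abcc4 was the only list gene called for Pio in WT mice (1.75, SE 0.37, edgeR adjusted p = 0.0126). That is 1.23% of the 81, against 1.08% of all genes. Without mouse 13, Abcc4 was 1 of 7 list genes that rose, while the calls over all genes rose from 140 to 1501.

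Of the 9 tested genes of NADPH supply, 2 fell on HFD in WT mice beside G6pdx: Pgd, the next dehydrogenase of the pentose phosphate pathway (-1.09, SE 0.24, edgeR adjusted p = 0.0141), and Rpia, which isomerises its product (-0.89, SE 0.24, edgeR adjusted p = 0.0493). The median of the list was -0.11, against 0.00 for all tested genes, and the other 7 tested genes of the list were not called. Among these, Me1, which encodes malic enzyme, was 259 ± 122 CPM in WT control and 91.4 ± 27.1 CPM in WT HFD mice (SD, n = 5). H6pd went the other way, at 715 ± 133 CPM in WT control and 808 ± 112 CPM in WT HFD mice. Rpia was not called without mouse 832 (-0.95, edgeR adjusted p = 0.0689) and was called without mice 832, 12 and 13 together (-0.94, edgeR adjusted p = 0.0179). With Pio, Pgd fell on HFD as well (-0.91, SE 0.24, edgeR adjusted p = 0.0467), the only list gene called there (1.23% of 81, against 1.22% of all genes). Without Pio, 3 of the 81 tested list genes fell on HFD and 0 rose (3.70%, against 1.31% of all genes). The third of these was Gstm3 (-2.66, SE 0.50, edgeR adjusted p = 0.00255), called also without mouse 832 (-1.88, edgeR adjusted p = 0.0284).

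In KO mice Pio against control called 10 of the 81 list genes, 9 higher and 1 lower (12.3%, against 9.01% of all genes), and most of these calls were lost without mouse 13. Named by smallest adjusted p, they were Gstm3 (1.94), Txnrd3, a thioredoxin reductase (0.92), Mafk, a small MAF partner of NRF2 (1.05), the pentose phosphate enzymes Tkt (0.81) and Pgls (1.18), the carbonyl reductases Cbr1 (1.38) and Cbr3 (1.75), and Ces1g, a carboxylesterase (-1.11). Without mouse 13, 3 list genes were called, and of the 10 only Gstm3 was among them (2.20, SE 0.49, edgeR adjusted p = 0.0308). Pgls was then -0.04 and Cbr1 0.07. Gstm3 in turn was not called without mouse 12 (1.09, edgeR adjusted p = 0.0720). HFD-Pio against Pio called 5 list genes in KO mice (Cbr1, Pgls, Fth1 and Sesn2 lower, Ces1g higher; 6.17%, against 4.96% of all genes), and without mouse 13 none of these 5 was called. The Pio effect on the control diet differed between the genotypes for 10 of the 81 list genes, 8 with a higher and 2 with a lower effect in KO mice (12.3%, against 7.87% of all genes). Without mice 832, 12 and 13 together, 5 of the 10 were still called (Ftl1, Gstm3, Nfe2l1, Ptgr1 and Slc3a2). Gstm3 had the lowest adjusted p of the 10 (3.97, SE 0.68, edgeR adjusted p = 0.00108). Without these 3 mice it was 2.51 (SE 0.49, edgeR adjusted p = 0.00330). Srxn1 over the same mice was 0.58, as given above.

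The genes whose values followed a member most closely were those with the highest Spearman correlation in the genotype where it was lower, over 20 WT and 20 KO mice, which share diets and libraries. For G6pdx they were Gm28548 (0.86 in WT and 0.88 in KO), Fabp5, a fatty acid binding protein (0.80 and 0.89), and Mtmr11 (0.79 in both). For Srxn1 they were Mknk2 (0.70 and 0.69), Maged2 (0.68 and 0.79) and Pyroxd2 (0.67 and 0.66), and for Gclm Cpt2, a carnitine palmitoyltransferase (0.73 and 0.75), Rabggta (0.73 and 0.72) and Aup1 (0.72 in both). Fabp5 had a group median of 51.8 CPM in WT control, 122 CPM in WT Pio and 94.7 CPM in KO Pio mice, and of 3.63 to 14.8 CPM in the other 5 groups.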

How the data were processed

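Liver RNA of 40 mice was poly-A selected and sequenced. According to the methods and the labels, reads were aligned to GRCm38 with STAR 2.0.4b, and the authors counted those reads per Ensembl gene with featureCounts 1.4.5 of Subread; use of strand is not stated. The deposited values are these raw counts, 1 column per mouse, with no unmatched column. Repeated lines, 598 in the KO and 574 in the WT table, held equal counts and were kept singly; the tables were joined by gene identifier (40594 genes), and 355 ribosomal RNA genes were removed. Counts were scaled by TMM and fitted in edgeR 4.0.16 (R 4.3.3) with 8 group means, robust dispersions and quasi-likelihood F tests, with Benjamini-Hochberg adjustment over 12942 genes in each of 14 comparisons. Exact permutation tests compared mean CPM, two-sided, and their p-values were not adjusted for the number of tests. Alternatives used DESeq2 1.42.0, limma 3.58.1, other size factors, no filter, each genotype alone, and each mouse left out. The fit was tested on simulated data. Nothing says which mice shared a cage, litter or library batch, so p-values measure the spread between these mice. The 10 members and the lists were chosen with earlier results of these data known. Members are all named, list genes where called (at most 8 per comparison, by smallest adjusted p), and for likeness the 3 closest genes. The list genes Me1, H6pd and Gsta1 were not called and are given for their values only. Coordinates and exon lengths came from GENCODE M21 (GRCm38), promoters from RefSeq. Binding data were not used here.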

Additional observations from a re-analysis of the deposited data

Results flagged for a closer look

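Within the groups of 5 mice, 7 values of members lay farther from the nearest other mouse than Dixon's 95% limit allows. The rule was applied to 74 groups with at least 10 counts in some mouse. The 7 values were Srxn1 (277 CPM) and Slc7a11 (6.37 CPM) in WT control mouse 832, Slc7a11 in KO Pio mouse 12 (4.60 CPM), Keap1 (282 CPM) and Mgst3 (7.03 CPM, the lowest) in KO Pio mouse 13, G6pdx in KO HFD mouse 9 (17.5 CPM), and Keap1 in WT HFD-Pio mouse 840 (53.2 CPM, the lowest). For normally distributed values chance alone flags about 1 group in 20. Over all tested genes the same rule flagged 46.9% in mouse 13, 15.3% in mouse 9 and 10.0% in mouse 832. For mice 840 and 12 the shares were 2.95% and 1.21%. The flags of members in mice 13, 9 and 832 are therefore not particular to the members. A difference between the genotypes was found for Srxn1, whose response to Pio on the control diet was 2.10 higher on the log2 scale in KO than in WT mice (edgeR, adjusted p = 0.00720). It was 1.22 without mouse 832 (edgeR, adjusted p = 0.0182) and 0.58, not called, without mice 832, 12 and 13 together (edgeR, adjusted p = 0.142).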

How the results depend on the processing

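The counts of called members depended on the tool and on single mice; the 3 mice left out together and limma without sample weights were chosen after seeing the data. With limma and sample weights they were 2 for WT Pio against control, 1 for WT HFD-Pio against HFD, 0 for WT HFD against control, 4 for WT HFD-Pio against Pio and 1 for the HFD effect with Pio, KO minus WT. Without sample weights limma called 0 for Pio against control in WT and KO mice, 0 for WT HFD against control and 0 for KO HFD-Pio against Pio. With no filter on low counts they were 0 for WT Pio against control, 1 for WT HFD against control, 0 for KO HFD-Pio against Pio and 2 for the Pio effect on the control diet, KO minus WT, where Slc7a11 was added. With each genotype fitted alone they were 0 for WT Pio against control, 3 for WT HFD against control (Gclm added), 0 for KO Pio against control and 0 for KO HFD-Pio against Pio. With DESeq2 size factors KO HFD-Pio against Pio had 2. Without mice 832, 12 and 13 together they were 0 for WT Pio against control, 1 for WT HFD-Pio against HFD, 3 for WT HFD against control (Gclm added), 0 for KO HFD-Pio against Pio and 0 for the Pio effect on the control diet, KO minus WT.

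When each mouse was left out, the counts ranged from 0 to 2 for WT Pio against control, 0 to 1 for WT HFD-Pio against HFD, 0 to 4 for WT HFD against control, 1 to 3 for KO Pio against control, 0 to 2 for KO HFD-Pio against Pio, 0 to 1 for the difference of the Pio effects between diets in WT mice and 1 to 2 for the Pio effect on the control diet, KO minus WT. Keap1 changed sign: for KO Pio against control it was -0.136 with limma and sample weights, -0.142 without the 3 mice, and -0.122 to 1.10 without single mice; for KO HFD-Pio against Pio it was 0.0675, 0.0543 and -1.17 to 0.0523. The mouse behind both sign changes was KO Pio mouse 13. Over all genes, leaving out that mouse moved the calls from 506 to 2007 for WT Pio against control, 140 to 1501 for WT HFD-Pio against HFD, 170 to 845 for WT HFD against control, 158 to 1119 for WT HFD-Pio against Pio, 1166 to 66 for KO Pio against control and 642 to 12 for KO HFD-Pio against Pio. With limma and sample weights the first 4 of these were 3095, 1087, 327 and 2937; with DESeq2 they were 813, 360, 376 and 380. KO mice fitted alone gave 0 calls for KO Pio against control, a comparison with 3577 genes below 0.05 before adjustment when all mice were fitted in edgeR. The cause was not tested. The fits without single mice were set beside the main fit for 25 of the 126 tested log2 fold changes of members. Of these values, 959 kept their direction and side of the threshold, 19 gained a call, 20 lost one and 2 changed sign. Many of these fits left out a mouse of a group that was not compared. No paired analysis was possible because the mice of different groups share no replicate numbers. Low counts limit Slc7a11 and Nqo1, and separate tables limit any comparison of levels between genotypes.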

Other observations

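Mice 832 and 12, which differ in genotype and treatment, shared other genes at high values. Chosen after the values were seen, 17 tested genes were at least 4 times the median of the other 4 mice of the group in both mice (0.2 CPM added to each value, at least 5 CPM in the mouse), out of 161 genes in mouse 832 and 37 in mouse 12. Gpnmb, a glycoprotein of lipid-laden macrophages, was 29.1 CPM in mouse 832 and 8.84 CPM in mouse 12, against medians of 0.250 and 0.194 CPM. Col1a1, a collagen of activated stellate cells, was 116 and 34.6 CPM, against 5.72 and 5.96 CPM. Gstm3 was 618 and 257 CPM, against 122 and 53.8 CPM, and Psat1, an enzyme of serine synthesis, 25.1 and 6.36 CPM, against 4.83 and 0.744 CPM. The glutathione S-transferase Gsta1, below the limit for this count, was 2.46 and 9.63 CPM, against 0.243 and 0.113 CPM. What these mice have in common was not tested.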
